A study of Mus musculus with 5 samples.

Results

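The genes described here are 10 members of the machinery that opens and closes the G1 gate of the cell cycle in erythroid cells: the Cip/Kip inhibitors Cdkn1a, Cdkn1b and Cdkn1c, the INK4 inhibitors Cdkn2c and Cdkn2d, the D-type cyclins Ccnd1, Ccnd2 and Ccnd3, and their partner kinases Cdk4 and Cdk6. They were chosen by name, and all 10 were found among the 39179 genes of the count table and passed the filter on low counts that left 13000 genes for testing. RNA came from TER119+ erythroid cells sorted from C57BL/6 mouse fetal liver at 14.5 days post conception. The 3 control libraries carried Csnk2b+/+ and Vav+/Cre, and the 2 KO libraries carried Csnk2bfl/fl and Vav+/Cre, so the Cre transgene, driven by the pan-hematopoietic Vav1 promoter, was present in both groups. CK2, a protein kinase, has Csnk2b for its regulatory subunit gene. The labels number the embryos without stating whether each library is 1 embryo, so p-values here cover only the spread between libraries.

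D-type cyclins bind CDK4 or CDK6, and the resulting kinases phosphorylate the retinoblastoma protein, which releases E2F transcription factors and lets a cell enter S phase. INK4 proteins bind CDK4 and CDK6 and keep cyclin D away, whereas Cip/Kip proteins bind cyclin-CDK complexes, above all those of CDK2, and block them. Erythroblasts divide rapidly and then leave the cycle as they mature, and cyclin D3, CDK6 and the inhibitors encoded by Cdkn1b and Cdkn2c are known for their part in setting the number of those divisions. Cdkn1a is the classical cell cycle target of p53.

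Promoter sequences are shown for Cdkn1a, the gene with the largest difference, and for its paralogue Cdkn1b, which did not pass the test. Each line gives the 250 bases before a RefSeq transcript start on build GRCm38.p6, on the plus strand, with GGGCGG (bound by Sp1), TATAA and a p53 response element, on either strand, in capitals. Such windows were matched for 7 of the 10 genes, and those of Cdkn1c, Ccnd1 and Ccnd2 were not analysed here.
Cdkn1a upstream start, chr17:29090729-29090978: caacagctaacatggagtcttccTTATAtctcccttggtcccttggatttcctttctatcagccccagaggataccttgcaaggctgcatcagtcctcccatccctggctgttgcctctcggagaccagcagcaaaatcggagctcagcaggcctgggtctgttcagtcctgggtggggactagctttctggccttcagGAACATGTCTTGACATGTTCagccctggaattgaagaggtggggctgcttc
Cdkn1a downstream start, chr17:29093519-29093768: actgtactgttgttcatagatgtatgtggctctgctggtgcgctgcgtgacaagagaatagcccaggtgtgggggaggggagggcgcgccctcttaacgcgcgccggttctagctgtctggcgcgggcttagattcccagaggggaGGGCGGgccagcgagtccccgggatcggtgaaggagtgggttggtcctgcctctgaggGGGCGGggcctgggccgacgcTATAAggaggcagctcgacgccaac
Cdkn1b, chr6:134920151-134920400: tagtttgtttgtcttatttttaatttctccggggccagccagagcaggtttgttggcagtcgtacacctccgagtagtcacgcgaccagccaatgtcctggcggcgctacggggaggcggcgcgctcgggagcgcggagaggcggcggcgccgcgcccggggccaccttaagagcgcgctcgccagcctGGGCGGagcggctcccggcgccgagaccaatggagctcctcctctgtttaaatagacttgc
The Cdkn1a starts lie 2790 bases apart. The p53 response element was searched as 2 consensus half-sites with no spacer and at most 1 mismatch, on both strands, and 19 of 32851 windows of this length (0.0578%) held one. In the window before the upstream Cdkn1a start it is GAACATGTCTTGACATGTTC, which begins 51 bases before the start and has 1 mismatch. The other motifs are common: GGGCGG on either strand was in 32.7% of windows and TATAA in 22.8%. The window before the downstream Cdkn1a start held 2 copies of GGGCGG and a TATAA that begins 25 bases before the start, and that of Cdkn1b held 1 GGGCGG. The E-box bound by MYC, CACGTG, was in 6.02% of windows and occurred 4 times before Cdk4 and once before Cdk6. TTCNNNGAA, the core of STAT sites, was in 7.02% of windows and in none of those of these 7 genes. The counts are summed over a gene, so they do not show which start was used.

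Totals were 13187094 to 15366021 counts per library, and values are given in CPM, with each library's size adjusted by TMM. The targeted gene matched the labels: Csnk2b fell 1.74-fold (edgeR adjusted p = 0.0018), from 181 CPM ± 9.54 (SD, n = 3) to 112 and 95.6 CPM in the KO libraries, where reads from any undeleted exons still count. The catalytic subunit genes Csnk2a1 and Csnk2a2 had log2 fold changes of 0.16 ± 0.08 and -0.12 ± 0.09 (SE) and did not pass. Control replicate 3 held 147 to 454 counts of each of 4 Y-linked genes, where every other library held at most 2, and Xist at 547 CPM beside 788 to 1026 CPM elsewhere. Without that library the log2 fold change was 4.07 for Cdkn1a, 0.69 for Ccnd2 and 0.61 for Ccnd1. Cdkn1a and Ccnd2 then still passed an edgeR adjusted p of 0.05, and Ccnd1 did not. The 16 erythroid markers summed to 81384 to 98632 CPM in controls, with 92847 in KO replicate 1 and 73365 in KO replicate 2, and edgeR called 0 of them (4 lower at an unadjusted p below 0.05; DESeq2 called 4 lower and limma-voom 0). Of these markers 15 had a log2 fold change below 0, with a median of -0.11. KO replicates 1 and 2 correlated at 0.991 across genes, below the lowest value between controls (0.995).

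Of the 10 genes, 3 were higher in KO at an edgeR adjusted p below 0.05 (Cdkn1a, Ccnd1 and Ccnd2), beside 5.15% of all genes tested higher and 6.98% called in either direction. None was lower, beside 1.83% of all genes; at an unadjusted p below 0.05, 3 were higher and 0 lower, beside 1864 and 1233 of the 13000 genes. DESeq2 and limma-voom also called 3 higher and 0 lower, beside 517 and 341 genes in DESeq2 and 612 and 230 in limma-voom. Both KO libraries lay above all controls for 4 of the 10 (the same genes and Cdkn1c), beside 21.9% of all genes, and 41.2% of all genes had no overlap in either direction. The median log2 fold change of the 10 was 0.07, and that of all genes tested 0.01. The inhibitors Cdkn1b, Cdkn2c and Cdkn2d, the abundant cyclin Ccnd3 and both kinases had 95% confidence intervals lying between 0.80-fold and 1.21-fold.

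**Figure D1:**
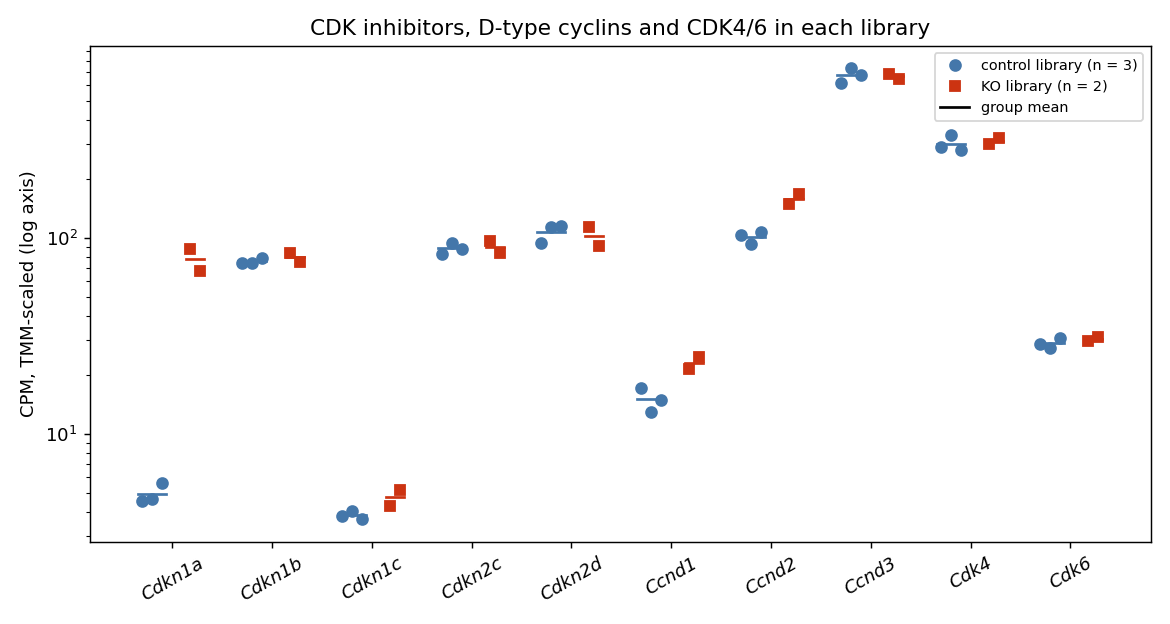
CPM of each of the 10 genes in each library on a log axis, with circles for the 3 controls, squares for the 2 KO libraries and lines for group means. The KO squares stand clear of the control circles for Cdkn1a, Ccnd1 and Ccnd2, and narrowly for Cdkn1c.

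Cdkn1a (ENSMUSG00000023067), whose product is the CDK2 inhibitor induced by p53, was scarce in controls, where replicate 1 held 4.57 CPM, replicate 2 held 4.65 and replicate 3 held 5.62, and the KO libraries held 87.6 CPM (replicate 1) and 67.9 CPM (replicate 2). In counts these were 71, 61 and 81 against 1140 and 1048. Each KO library was thus far above the highest control, and the groups did not come near each other. The group means were 4.94 CPM ± 0.58 (SD, n = 3) and 77.8 CPM ± 13.9 (SD, n = 2), a 15.7-fold rise with a 95% confidence interval of 12.6-fold to 19.6-fold (edgeR adjusted p = 2.1e-06). Only 16 of the 13000 genes had a larger log2 fold change. Leaving out any library or changing the test kept the adjusted p at or below 0.00085.

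The other Cip/Kip genes differed from Cdkn1a in this respect. Cdkn1b (ENSMUSG00000003031), which encodes an inhibitor that accumulates as cells leave the cycle, was at 74.2, 73.9 and 78.9 CPM in controls and at 83.9 and 75.1 CPM in KO. KO replicate 2 lay within the control range, and the log2 fold change was 0.07 ± 0.08 (edgeR adjusted p = 0.64), with a 95% confidence interval of 0.93-fold to 1.19-fold. Cdkn1c (ENSMUSG00000037664), an imprinted gene for an inhibitor known from embryonic growth control, was scarce, at 3.80, 4.04 and 3.68 CPM in controls and at 4.30 and 5.18 CPM in KO. Both KO values were above the controls by little, on 53 to 80 counts per library. Its log2 fold change of 0.31 ± 0.16 did not pass (edgeR adjusted p = 0.28), and its interval ran from 0.96-fold to 1.60-fold.

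The make-up of the Cip/Kip family within each library changed accordingly. Levels can be compared between genes only per length, here as CPM per kb of annotated exon. On that scale Cdkn1a gave 6.61%, 6.70% and 7.64% of the summed Cip/Kip level in controls and 54.5% and 50.1% in KO. Cdkn1b gave 83.2% to 83.8% in controls and 40.8% and 43.2% in KO. The summed level of the 3 genes was 19.9 CPM per kb ± 0.70 (SD, n = 3) in controls and 41.7 CPM per kb ± 4.99 (SD, n = 2) in KO. The sums follow the choice of the genes and were not tested.

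INK4 inhibitors were the larger pool and did not pass. Cdkn2c (ENSMUSG00000028551), for the INK4 protein p18, was at 82.9, 93.9 and 87.8 CPM in controls and at 96.4 and 83.7 CPM in KO, so the groups overlapped. Its log2 fold change was 0.03 ± 0.09 (edgeR adjusted p = 0.88; interval 0.89-fold to 1.17-fold). Cdkn2d (ENSMUSG00000096472), for the INK4 protein p19, was at 94.4, 113 and 114 CPM in controls and at 114 and 91.1 CPM in KO. Control replicate 1 and KO replicate 2 were the low libraries, and the log2 fold change was -0.07 ± 0.12 (edgeR adjusted p = 0.77; interval 0.80-fold to 1.14-fold). Per kb, INK4 genes summed to 101 ± 8.81 (SD, n = 3) in controls and 98.5 ± 13.5 (SD, n = 2) in KO, above the Cip/Kip sum in every library. Cdkn1a therefore rose from 1.04% to 1.26% of the 5 inhibitors' summed level per kb in controls to 16.1% and 15.03% in KO. The sum of all 5 inhibitors per kb was 110 to 126 in controls and 153 and 127 in KO, and it was 1.21 to 1.42 times the sum of Cdk4 and Cdk6 in controls and 1.63 and 1.26 times in KO, so the groups overlapped in that ratio. The remaining INK4 genes were nearly absent: Cdkn2a had 0 counts in each control and 2 in each KO library, and Cdkn2b had 0 to 2 counts in any library.

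**Figure D2:**
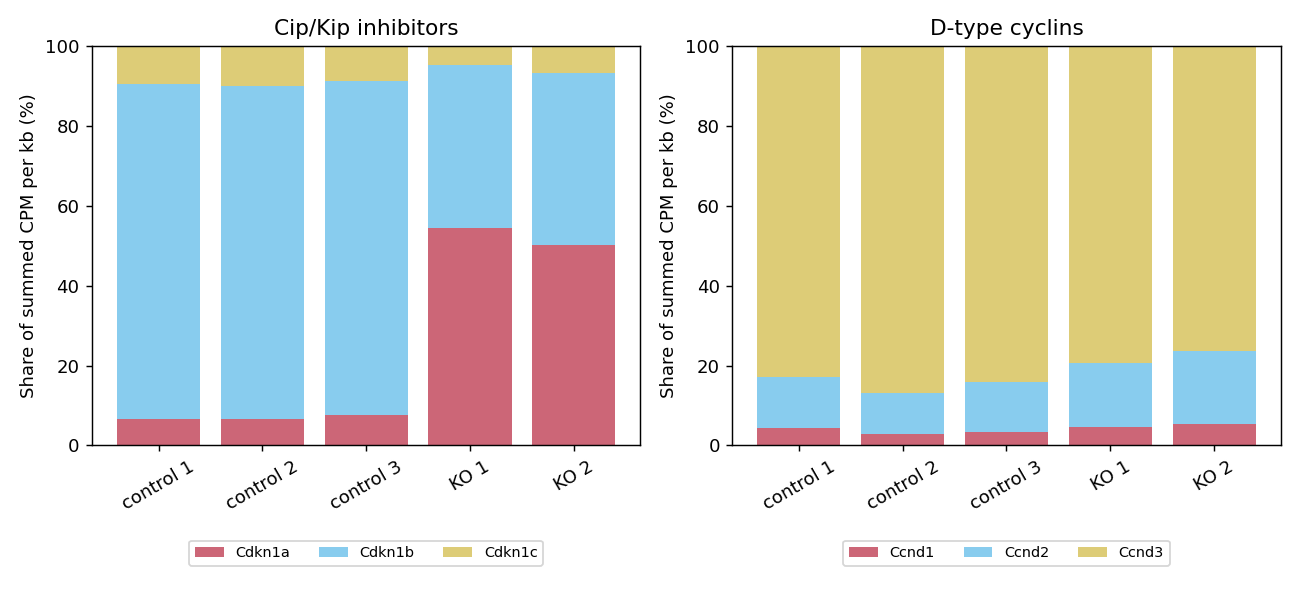
Stacked bars give each gene's share, in percent, of the summed CPM per kb of its family in each library, for the Cip/Kip inhibitors on the left and the D-type cyclins on the right. Cdkn1a takes 54.5% and 50.1% of the Cip/Kip bar in the KO libraries, and Ccnd3 remains the largest part of the cyclin bar in all 5.

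D-type cyclins split into an abundant gene that did not pass and 2 scarcer genes that rose. Ccnd2 (ENSMUSG00000000184), a cyclin induced by growth factor and STAT5 signalling, was at 103, 92.6 and 107 CPM in controls and at 149 and 167 CPM in KO. Both KO libraries lay above all controls. Ccnd2 rose 1.56-fold, with a log2 fold change of 0.64 ± 0.09 and an interval of 1.36-fold to 1.79-fold (edgeR adjusted p = 0.0036, at most 0.045 over all alternatives). Ccnd1 (ENSMUSG00000070348), the cyclin that most mitogen pathways induce, was at 17.05, 12.96 and 14.9 CPM in controls and at 21.4 and 24.6 CPM in KO. The highest control and the lower KO library were closer here than for Ccnd2. Ccnd1 rose 1.53-fold (log2 fold change 0.62 ± 0.13; interval 1.25-fold to 1.88-fold; edgeR adjusted p = 0.025). It missed the threshold without control replicate 2, without control replicate 3, without KO replicate 2 and without a filter on low counts (adjusted p 0.094, 0.090, 0.11 and 0.12).

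Ccnd3 (ENSMUSG00000034165), the D-type cyclin known to set the number of erythroblast divisions, was at 615, 730 and 672 CPM in controls and at 685 and 647 CPM in KO. Its KO values fell inside the control range. The log2 fold change was -0.01 ± 0.09 (edgeR adjusted p = 0.95), with an interval of 0.86-fold to 1.15-fold. Per kb, Ccnd3 gave 82.8% to 86.9% of D-type cyclin expression in controls and 79.3% and 76.2% in KO. Ccnd2 gave 10.3% to 12.96% and then 16.1% and 18.4%, and Ccnd1 gave 2.87% to 4.27% and then 4.63% and 5.39%. The summed level per kb was 90.6 ± 5.57 (SD, n = 3) in controls and 97.6 ± 1.25 (SD, n = 2) in KO, a ratio of 1.08.

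Cdk4 (ENSMUSG00000006728) and Cdk6 (ENSMUSG00000040274), which encode the kinases that D-type cyclins activate, did not pass. Cdk4 was at 290, 333 and 281 CPM in controls and at 299 and 321 CPM in KO, within the control range. Its log2 fold change was 0.04 ± 0.09 (edgeR adjusted p = 0.82; interval 0.89-fold to 1.19-fold). Cdk6 was at 28.8, 27.4 and 30.9 CPM in controls and at 29.9 and 31.2 CPM in KO. KO replicate 2 was just above the highest control, and the log2 fold change was 0.07 ± 0.09 (edgeR adjusted p = 0.67; interval 0.92-fold to 1.21-fold). Per kb, Cdk6 gave 1.88% to 2.49% of the summed Cdk4 and Cdk6 level in controls and 2.27% and 2.21% in KO, with annotated exons of 13989 bp for Cdk6 and 3249 bp for Cdk4. Expression per kb of the D-type cyclins was 0.92 to 1.03 times that of the kinases in controls and 1.04 and 0.96 times in KO.

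**Figure D3:**
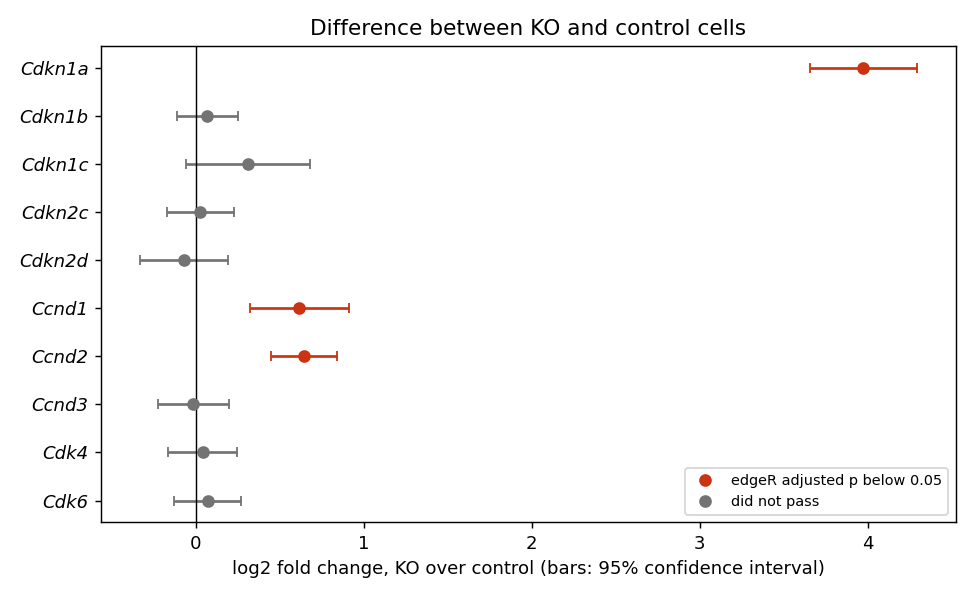
Log2 fold change of KO over control for each gene, as a point with its 95% confidence interval. Intervals of Cdkn1a, Ccnd1 and Ccnd2 lie above 0, and those of the remaining 7 genes include 0.

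In control cells the order of levels per kb ran from Cdk4 at 92.8 ± 8.52, Ccnd3 at 76.6 ± 6.55 and Cdkn2d at 68.1 ± 7.08 (SD, n = 3) down to Cdk6 at 2.08 ± 0.13, Cdkn1c at 1.88 ± 0.09 and Cdkn1a at 1.39 ± 0.16. Between these stood Cdkn2c at 32.8 ± 2.05, Cdkn1b at 16.6 ± 0.61, Ccnd2 at 10.7 ± 0.80 and Ccnd1 at 3.18 ± 0.43. Ccnd3 and Cdkn2d overlapped between libraries, and so did Cdk6 and Cdkn1c. Other neighbours in this order did not overlap. In KO cells Cdkn1a moved from last place to between Cdkn2c and Cdkn1b, at 24.7 and 19.1 CPM per kb beside 18.4 and 16.5 for Cdkn1b in KO replicates 1 and 2. The lengths are those of all annotated exons merged, so a gene with long, little-used exons appears lower than its most used transcript would.

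Some of these genes share sequence or ground with others, and the sources used here do not say whether strand was used in counting. Any part of such reads in the values was not tested. Ccnd1 on chromosome 7 (144929931 to 144939925, minus strand, mm10) overlaps LTO1 on the opposite strand by 1771 bp; LTO1 held 214 to 251 counts per library and Ccnd1 170 to 379. Ccnd2 on chromosome 6 (127125162 to 127152193, minus strand) overlaps the antisense gene 9330179D12Rik, which held at most 1 count. Cdk4 on chromosome 10 (127063534 to 127067920, plus strand) overlaps Tspan31 by 641 bp, and Ccnd3 overlaps Bysl by 361 bp. The copy Ccnd3-ps held 384 to 407 counts, beside 8915 to 9982 for Ccnd3, so some reads of either could be assigned to the other.

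Cdkn1a and Ccnd3 lie on chromosome 17, like the floxed gene. Cdkn1a (29090976 to 29100727, plus strand) is 6.02 Mb from Csnk2b and Ccnd3 (47505051 to 47599691, plus strand) 12.4 Mb. Within 5 Mb of Csnk2b 17.7% of 164 tested genes were higher in KO, from 5 to 10 Mb 9.91% of 111, from 10 to 15 Mb 7.04% of 142, from 15 to 20 Mb 4.76% of 21 and beyond 20 Mb 3.26% of 215, beside 5.15% of all genes. The shares called higher were thus larger near the floxed gene, with Cdkn1a itself counted among the genes from 5 to 10 Mb. Shares called lower were 1.22%, 0%, 4.23%, 0% and 1.40% in the same order, beside 1.83% of all genes. Within 5 Mb the higher genes included H2-K1, H2-D1 and H2-T23 of the major histocompatibility complex (MHC). The peptide loading genes Tap1, Tap2 and Tapbp there were also higher, whereas H2-Q10 and H2-Aa did not pass. Their part in the shares was not tested. KO embryos carried 2 floxed copies and controls none, so a difference inherited with the floxed chromosome and the loss of Csnk2b cannot be told apart by group. The 3 nearest tested genes on each side of Cdkn1a, named for their position, did not pass in edgeR: Kctd20, Stk38 and Srsf3 below it had log2 fold changes of 0.10, -0.03 and -0.08, and Rab44, Ppil1 and BC004004 above it -0.00025, 0.02 and 0.23 (adjusted p = 0.11 for BC004004, the smallest of the 6). The next genes above BC004004 were higher in KO: Pi16 at 1.52 and Mtch1 at 0.36 on the log2 scale. Neurl1b, also 5 to 10 Mb from Csnk2b, was higher at 5.51, above Cdkn1a. Rab44, 13.4 kb away, was at 25.5 to 36.3 CPM in controls and at 30.5 and 32.7 CPM in KO.

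**Figure D4:**
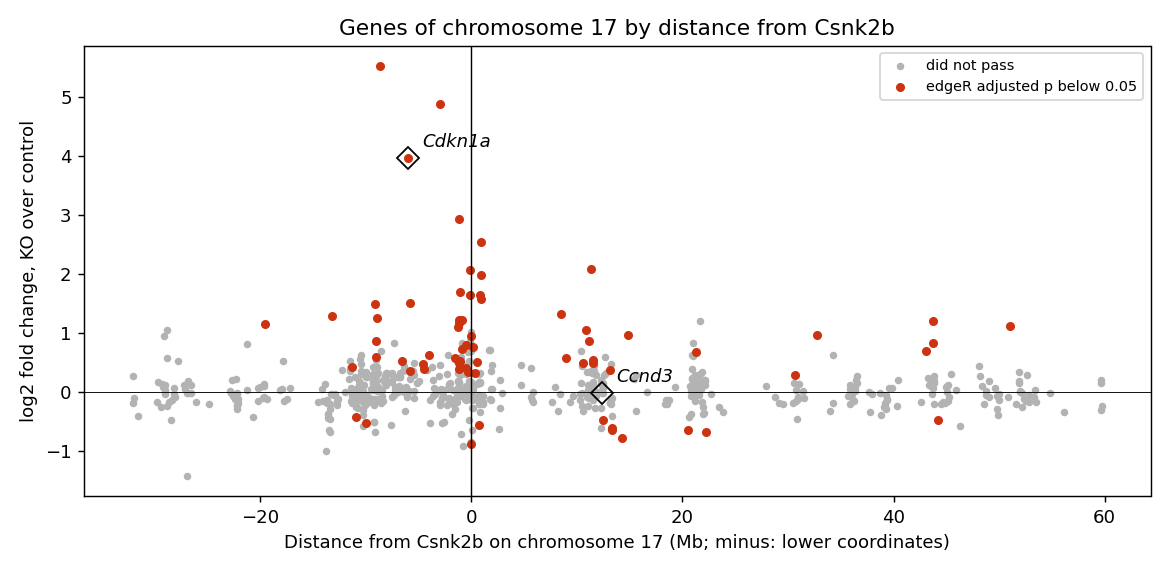
Log2 fold change of the tested genes of chromosome 17 against distance from Csnk2b in Mb, with genes past an edgeR adjusted p of 0.05 in red and diamonds around Cdkn1a and Ccnd3. Cdkn1a stands at 3.97 and Ccnd3 at -0.01, and other red points lie within 10 Mb of Csnk2b, among them Neurl1b at 5.51.

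Markers of other blood and liver cells were measured in the same libraries, since bulk counts cannot tell fewer cells of a type from less RNA per cell. Summed megakaryocyte markers were at 149 to 163 CPM in controls, 163 in KO replicate 1 and 219 in KO replicate 2, with 0 of 9 tested called in edgeR (3 higher and 1 lower at an unadjusted p below 0.05; DESeq2 called 1 higher). Endothelial and stromal markers were at 67.8 to 76.1 CPM in controls and at 62.6 and 96.2 CPM in KO. Of 9 tested, edgeR called 2 higher, Col1a1 and Col1a2, and 0 lower, beside 5.15% and 1.83% of all genes. At an unadjusted p below 0.05, 3 were higher and 2 lower. DESeq2 called 3 higher and limma-voom 1, and 5 of the 9 had a log2 fold change below 0 (median -0.04). KO replicate 2, the higher library for both sums, was also the higher one for Ccnd1, Ccnd2, Cdkn1c, Cdk4 and Cdk6. KO replicate 1 was the higher one for Cdkn1a, Cdkn1b, Cdkn2c, Cdkn2d and Ccnd3. Macrophage markers were at 111 to 123 CPM in controls and at 88.7 and 85.5 CPM in KO. Of 11 tested, 4 were lower in edgeR, beside 1.83% of all genes. At an unadjusted p below 0.05, 10 were lower, and DESeq2 called 3 lower and limma-voom 4. All 11 had a log2 fold change below 0, with a median of -0.68. Progenitor markers, whose cells use Ccnd2 and Cdk6, were at 272 to 331 CPM in controls and at 283 and 291 CPM in KO. Of 11 progenitor markers tested, edgeR called 0 (0 higher and 1 lower at an unadjusted p below 0.05), and DESeq2 called 1 lower. Their part in these results was not tested. Hepatocyte markers (238 to 379 against 281 and 332 CPM), granulocyte and mast cell markers (551 to 795 against 750 and 624 CPM) and lymphoid markers (9.30 to 12.3 against 10.1 and 7.84 CPM) overlapped between groups. Fcer1a, Cd3d, Cd3e and Dntt were at 0 counts in all 5 libraries.

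Downstream of the D-type cyclin kinases, single genes seldom passed. Among 13 genes of the RB and E2F families edgeR called 0 (4 lower at an unadjusted p below 0.05; DESeq2 called 3 lower and limma-voom 0), and 12 had a log2 fold change below 0, with a median of -0.10 beside 0.01 over all genes. Rb1, the retinoblastoma gene, was at -0.05 ± 0.10, the S phase activator E2f2 at -0.06 ± 0.11 and E2f4, which acts with pocket proteins, at -0.23 ± 0.09 on the log2 scale. Among 20 E2F target genes of DNA replication 1 was lower in edgeR, beside 1.83% of all genes. At an unadjusted p below 0.05, 6 were lower, and DESeq2 called 5 lower. Of the 20, 19 had a log2 fold change below 0, and the median was -0.15. Erythroid markers also leaned down (15 of 16 below 0, median -0.11), beside 6171 of all 13000 genes below 0, and their part in the E2F values was not tested. Tyms, for thymidylate synthase, was that gene: controls averaged 146 CPM ± 4.71 (SD, n = 3), KO libraries held 123 and 114 CPM (edgeR adjusted p = 0.04), and it missed the threshold in 6 of 12 alternatives (adjusted p up to 0.15).

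Genes for kinases and cyclins that act after the D-type step did not pass. Of 10 tested genes for cyclins E, A and B, CDK1, CDK2 and CDC25 phosphatases edgeR called 0 (1 higher and 3 lower at an unadjusted p below 0.05; DESeq2 and limma-voom called 0). Cdk2, the main target of Cdkn1a protein, averaged 134 CPM in both groups, with an SD of 1.72 in controls and 6.09 in KO. Ccne1, its cyclin partner, stood at -0.22 ± 0.07 on the log2 scale, with both KO libraries below all controls (edgeR adjusted p = 0.096). The abundant members Cdc25b and Ccna2 were at 0.07 ± 0.11 and -0.22 ± 0.09, and Ccna1 had no count. The proliferation marker Mki67 was at 7261 CPM ± 209 (SD, n = 3) and at 7026 and 5029 CPM in KO, and did not pass (edgeR adjusted p = 0.32).

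Of 18 genes for assembly and turnover of cyclin-CDK complexes 1 was lower in edgeR and 0 higher, beside 1.83% and 5.15% of all genes. At an unadjusted p below 0.05, 1 was higher and 3 lower. Cks2, a small CDK-binding subunit, fell by 0.58 ± 0.12 on the log2 scale, from 20.3 CPM ± 2.11 (SD, n = 3) to 14.1 and 13.1 CPM (edgeR adjusted p = 0.023), and it missed the threshold in 4 of 12 alternatives (adjusted p up to 0.11). Cdkn3, the phosphatase gene listed with Cdkn2a and Cdkn2b as the other CDK inhibitors, was at 45.6 CPM ± 0.75 (SD, n = 3) and at 45.8 and 32.5 CPM in KO, so KO replicate 2 alone was low (edgeR adjusted p = 0.33).

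Regulators upstream of these genes were partly higher. Of 24 measured, 5 were higher and 0 lower in edgeR, beside 5.15% and 1.83% of all genes. At an unadjusted p below 0.05, 11 were higher and 4 lower, beside 1864 and 1233 of the 13000 genes. DESeq2 called 6 higher and 1 lower, limma-voom 5 and 0, and the median log2 fold change was 0.10. Jun, an AP-1 subunit that acts on Ccnd1, rose 5.45-fold from 11.4 CPM ± 1.59 (SD, n = 3) to 71.4 and 53.7 CPM (edgeR adjusted p = 4.9e-05). Klf6, a zinc finger factor known to act on Cdkn1a, rose 1.97-fold (edgeR adjusted p = 0.0032), the stress factor gene Ddit3 1.41-fold (0.0084) and Zbtb17, whose product binds MYC and the promoters of CDK inhibitors, 1.31-fold (0.033). Mdm2, for the p53 ubiquitin ligase, rose 1.27-fold (0.044). Mdm2 missed the threshold in 9 of 12 alternatives, Zbtb17 in 7 and Ddit3 in 3 (adjusted p up to 0.17, 0.14 and 0.058). Trp53 averaged 158 CPM in controls and 168 CPM in KO, a log2 fold change of 0.08 ± 0.09. Myc was at 0.13 ± 0.10, Foxo3 at -0.03 ± 0.11, Stat5a at -0.27 ± 0.08 and Stat5b at 0.16 ± 0.07, and the erythroid factors Gata1 and Klf1 were at -0.05 ± 0.08 and -0.21 ± 0.10. None of these 7 passed in edgeR, with adjusted p-values from 0.083 for Stat5a to 0.91 for Foxo3.

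Apart from Cdkn1a, 15 of 19 tested p53 target genes were higher and 0 lower in edgeR, beside 5.15% and 1.83% of all genes. At an unadjusted p below 0.05, 17 were higher and 1 lower, and DESeq2 and limma-voom each called 14 higher and 0 lower. The median log2 fold change of the 19, which include Mdm2, was 0.89. Phlda3, Zmat3, Bbc3 and Ccng1, named for the smallest p-values, rose by 4.30, 3.86, 2.81 and 1.45-fold. The largest rises in the list were 8.09-fold for Eda2r, on 2 to 8 counts per control library, and 7.61-fold for Ddit4. None in the list reached the 15.7-fold of Cdkn1a. The genes with profiles closest to that of Cdkn1a over the 5 libraries were Rhbdf1, Lama5, Aplp1, Trib3 and Irf7. Their root mean square distances from it ran from 0.27 to 0.43 in log2 CPM, each profile centred on its control mean. That distance is small only for genes with a rise of similar size, and the 5 had log2 fold changes from 3.57 to 4.27. None of the 5 is in the p53 list used here, where the largest log2 fold change was 3.02 beside 3.97 for Cdkn1a. The distance therefore cannot show whether genes of that list vary together with Cdkn1a. Rhbdf1 was at 1.66 to 1.98 CPM in controls and at 36.1 and 35.8 CPM in KO.

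**Figure D5:**
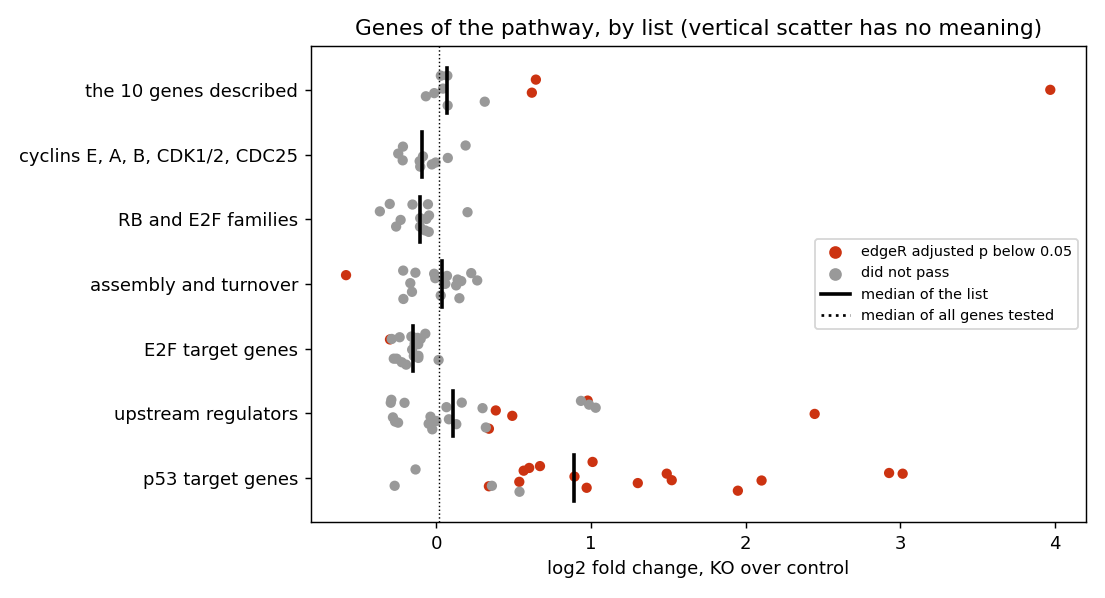
Log2 fold change of KO over control for the genes of each list, 1 point per gene, with red for an edgeR adjusted p below 0.05, bars for list medians and a dotted line for the median of all genes tested. p53 targets spread upward with a median of 0.89, whereas E2F targets gather at a median of -0.15.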

How the data were processed

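The deposited table holds whole-number read counts per Ensembl gene for 5 libraries, which the authors did not normalise. Poly(A) RNA of the sorted cells was sequenced on the Ion Proton platform, per the labels' protocols. Cutadapt, STAR, Bowtie, HTSeq and build mm10 are named, per the submitters' processing notes; the sources used here do not give versions, strand use or the handling of multimapping reads. Of 39179 identifiers, 37607 matched a symbol; the others held at most 0.388% of counts. Coordinates and exon lengths come from GENCODE M21 (GRCm38, the assembly mm10 names), and promoters from RefSeq.

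Groups were taken from the labels. Counts were tested with edgeR 4.0.16 in R 4.3.3 (filterByExpr, TMM factors 0.970 to 1.03, glmQLFit and glmQLFTest, two-sided), with Benjamini-Hochberg adjustment over 13000 genes. The common biological coefficient of variation was 8.67%. On simulated counts for the KO against control comparison, 200 of 13000 genes were changed, up or down at random. These steps found 50.7% of changes of 0.5 (log2) and 82% of changes of 1. Of the calls 10.6% were false, more than the threshold of 0.05 aims at. That share depends on how many genes change, so it does not carry over to these data, where 907 genes were called. Standard errors come from the fold change and F statistic, and 95% confidence intervals from the moderated degrees of freedom. Alternatives were RLE scaling, no filter, a table without globin and mitochondrial genes, limma-voom (limma 3.58.1), DESeq2 1.42.0, at least 5 CPM in 2 libraries, a replicate block and leaving out each library. The labels name no molecular identifiers.

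The 10 genes and the lists were chosen with earlier results of these data known. Named beside them were the 3 CK2 subunits, up to 4 genes per list past the threshold or otherwise the 2 most abundant, 12 regulators and cycle genes, and the 5 genes nearest to the profile of Cdkn1a (0.1 CPM added before the log). Neurl1b, Pi16, Mtch1, the H2 and peptide loading genes and the other neighbours of Cdkn1a were named outside that rule, after their values were seen. So were Col1a1, Col1a2, Eda2r, Ddit4, Ccna1, Cdkn2a and Cdkn2b, the sex-linked genes and the genes overlapping members. Shares are per library, with no test.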

Additional observations from a re-analysis of the deposited data

How the results depend on the processing

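Of 119 values of the 10 genes under alternatives, 106 kept their direction and side of the threshold. Cdkn1a (log2 fold change 3.76 to 4.14 when a library was left out) and Ccnd2 (0.55 to 0.70) passed in all alternatives. Without a filter on low counts Ccnd1 missed the threshold at 0.62, and 235 genes were higher and 53 lower. In the pathway lists 10 genes were then called instead of 21. More genes were tested in that fit, and unadjusted edgeR p-values moved too, for Cdkn1a from 4.9e-10 to 1.6e-07. With the replicate block, in which control replicate 3 has no partner and adds nothing, Cdk4 went to -0.0036, and 702 genes were higher and 171 lower. Same-numbered libraries deviated together at correlations of only 0.0016 and 0.042. The deviations of 2 KO libraries from their mean mirror each other, so these values cannot show whether the numbers pair the libraries. The labels do not state a pairing. Leaving out a library gave 210 to 1709 genes higher, 31 to 1247 lower and 11 to 47 called in the pathway lists. The highest counts came without KO replicate 1. Leaving out either KO replicate leaves a lone KO library, assumed to vary like the controls, and the counts did not rise without KO replicate 2. Over the same fits the log2 fold change ranged from 0.51 to 0.72 for Ccnd1, -0.033 to 0.15 for Cdkn1b, -0.10 to 0.12 for Cdkn2c, -0.26 to 0.080 for Cdkn2d, -0.078 to 0.048 for Ccnd3 and -0.014 to 0.12 for Cdk4. Other genes that changed sign ranged from -0.13 to 0.23 (Cdc25b), -0.074 to 0.037 (Cdk2), -0.51 to 0.0011 (Cdkn3), -0.23 to 0.058 (E2f2), -0.22 to 0.12 (Foxo3), -0.082 to 0.0086 (Gata1), -0.078 to 0.28 (Myc) and -0.25 to 0.11 (Rb1). The cause was not tested. Cdkn1c gave no value under the filter of 5 CPM. With 2 KO libraries, a gene at the level of Cdkn1c is limited by counts of 53 to 80 per library.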
